A study of Homo sapiens with 8 samples.

Results

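The genes described here encode Wnt ligands, the receptors that bind them and the proteins that carry or curb the signal. They are 44 genes chosen by name, and all 44 were found among the 60564 genes of the count table through their Ensembl identifiers. Expression was measured by sequencing polyadenylated RNA of AB8/13 cells. This established human podocyte line carries a temperature-sensitive T antigen, so it proliferates at 33 °C and stops dividing and differentiates at 37 °C. The knockdown group consists of 4 libraries from AB8/13 cells given an shRNA against ATOH8, which encodes a helix-loop-helix protein that binds DNA, by lipid transfection. The control group consists of 4 libraries from the same line given a non-targeting shRNA in the same way. Cells of both groups spent 5 days at 37 °C before RNA was taken. The sources do not name the shRNAs or say how many were used. All libraries come from 1 cell line, and although the sources speak of biological replicates, they name no separate cultures or transfections, so the p-values rest on a spread between libraries that may be partly technical.

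Wnt proteins are secreted, lipid-modified ligands. When a Wnt binds a Frizzled receptor and the co-receptor LRP5 or LRP6, the Dishevelled proteins stop a complex built on Axin and APC from marking beta-catenin for destruction, and beta-catenin then enters the nucleus and activates genes together with TCF and LEF factors. Some of those genes, such as AXIN2, RNF43 and ZNRF3, act back on the pathway and dampen it. Other Wnts, WNT5A among them, act mostly through receptors such as ROR1, ROR2 and RYK without beta-catenin. In the kidney, Wnt signalling is needed to form nephrons in mice, and raised beta-catenin activity in podocytes accompanies proteinuria in mouse models of podocyte injury.

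Library totals ran from 21108695 to 27109043 counts. The targeted gene was lower in each knockdown library: ATOH8 had 2.19, 2.79, 2.63 and 2.11 CPM in knockdown libraries, against 6.56, 6.0, 5.8 and 4.97 CPM in control libraries (CPM, counts divided by the TMM-scaled library size and multiplied by 1e6). An exact two-sided permutation test gave p = 0.0286, which is also its lower limit with 70 ways to assign the libraries. Of 14 podocyte markers, 8 had enough counts to test. NPHS1 (nephrin), a defining gene of the slit diaphragm, had 6, 5, 3 and 2 reads in knockdown libraries, against 2, 0, 0 and 0 in control libraries, so it was near 0 in both groups. The 14 summed to 1906 to 1999.7 CPM in knockdown and 1898 to 1990.4 CPM in control libraries, most of it ACTN4 and KIRREL1, with 2 of the 8 higher and 4 lower. The summed levels of markers of other cell types differed between the groups, and the counts of these markers called are to be read against the 51.1% of all genes tested that passed, 25.2% higher and 25.9% lower. The summed level of 12 mesangial and pericyte markers was 685 to 721 CPM in knockdown and 601 to 623 CPM in control libraries, with 5 of 7 tested higher and 1 lower and no gene at 0 throughout. The 16 tubule and parietal markers summed to 2140.4 to 2231 CPM in knockdown and 1881 to 1935 CPM in control libraries, with 4 of 9 tested higher, 2 lower and AQP2 at 0 counts. The log2 changes of those 9 ran from -2.18 to 0.91, with a median of 0.02, so the list did not rise as a whole. For 12 endothelial markers, of which EMCN was at 0 counts throughout, the sums were 60.2 to 62.8 CPM in knockdown and 39.6 to 42.9 CPM in control libraries, with 5 of 7 tested higher. The 10 leukocyte markers summed to 103 to 113 CPM in knockdown and 76.9 to 87.1 CPM in control libraries, nearly all of it CD68, with 2 of 4 tested higher and MS4A1 at 0 counts. The part of these markers in the results below was not tested, and in bulk RNA fewer cells of a type and less RNA per cell cannot be told apart.

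Most of the Wnt genes that changed rose, and most of the changes were modest. Of the 44 genes, 37 had enough counts to test, and of these 21 were higher and 6 lower in ATOH8 knockdown at an adjusted p under 0.05 (edgeR's quasi-likelihood test, Benjamini-Hochberg adjustment over all 16884 genes tested), while 10 did not pass. Of the tested Wnt genes 73.0% passed, 56.8% higher and 16.2% lower, against 51.1% of all genes tested, 25.2% higher and 25.9% lower. Calls depended on level: of the 10254 genes with a mean of at least 10 CPM, 27.7% were higher and 34.4% lower. Of the 6630 genes under 10 CPM, 21.3% were higher and 12.8% lower. Neither the Wnt genes nor the lists below were matched to other genes by level. The median log2 change was 0.18 for the tested Wnt genes and -0.000721 for all genes tested, and the median size of the change was 0.23 and 0.19 on the log2 scale. The 4 libraries of the groups did not overlap for 27 of the 37, against 45.6% of all genes tested. Changes of at least 2-fold were found for 3 of them (DKK2, TCF7L1 and RNF43), and 4.48% of all genes tested passed with a change of that size. All 37 would have met the count filter in either group alone. The 44 genes were chosen with earlier results of these data known, so these shares describe them and are no test of the pathway.

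**Figure D1:**
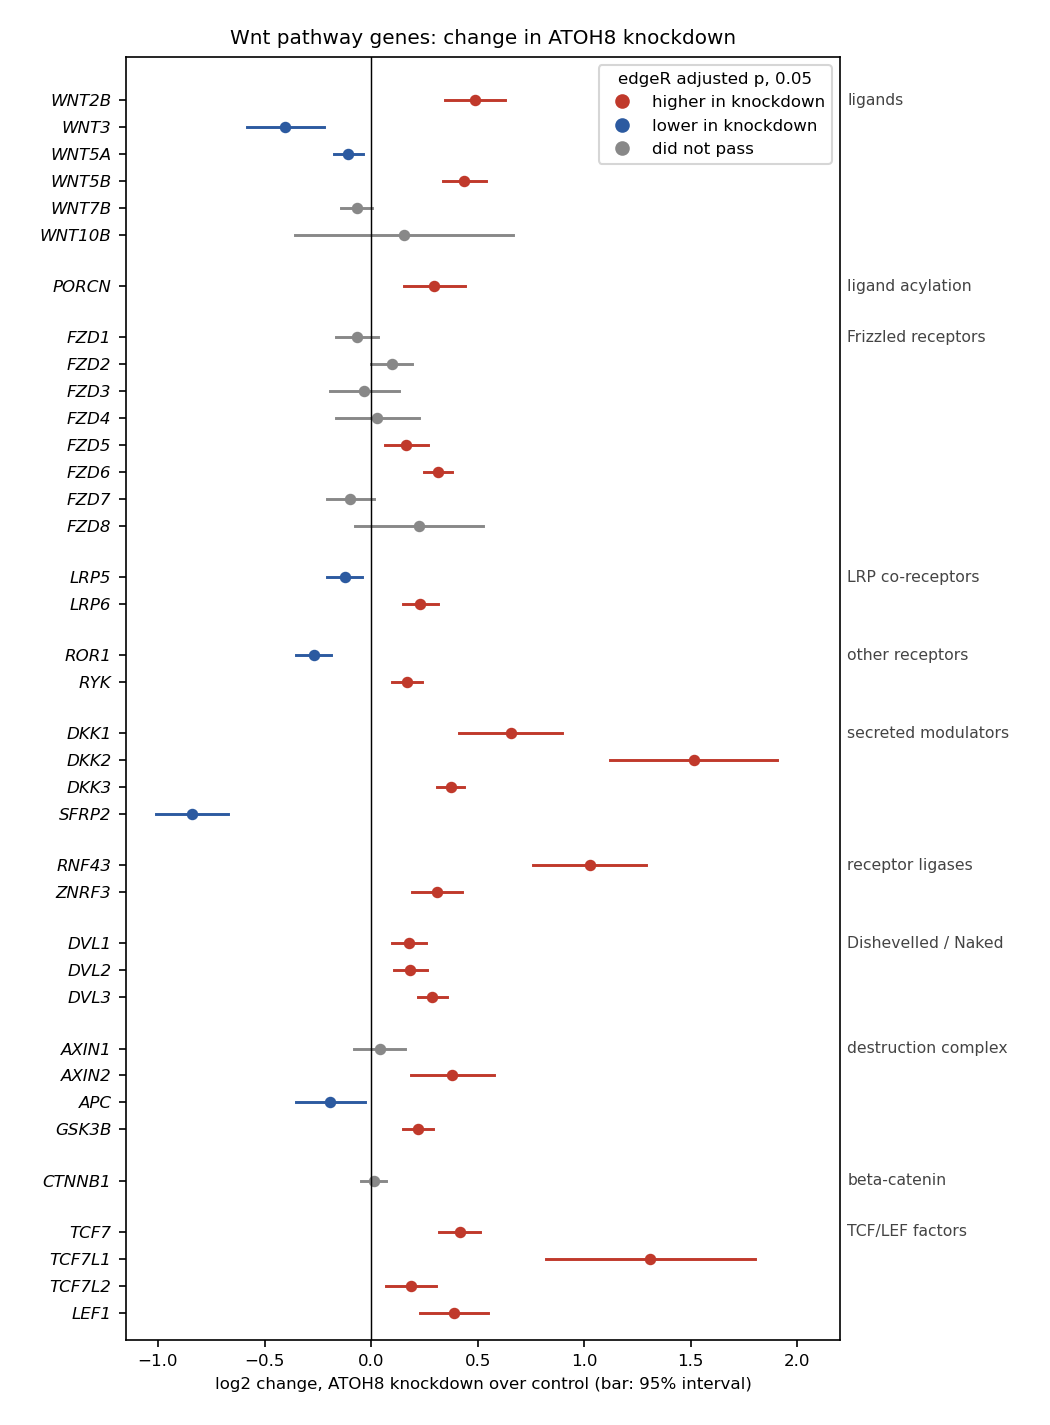
Log2 change of the 37 tested Wnt genes in ATOH8 knockdown over control (horizontal axis), grouped by role, with points for the edgeR estimate and bars for its 95% interval; red genes were higher, blue genes lower and grey genes did not pass at an adjusted p of 0.05. Changes run from -0.84 for SFRP2 to 1.51 for DKK2, and all 4 TCF/LEF factors and all 3 Dishevelled genes lie to the right of 0.

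The ligands split by gene, and their summed level hardly differed. WNT2B and WNT5B rose, WNT3 and WNT5A fell, WNT7B and WNT10B did not pass, and WNT9A and WNT11 had too few counts to test. The 8 ligand genes together reached 356 ± 5.7 CPM in knockdown and 353 ± 10.1 CPM in control libraries (SD, n = 4 each).

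WNT2B (ENSG00000134245.18, chromosome 1), a ligand linked mostly to beta-catenin signalling, had 17.2, 16.6, 15.7 and 15.3 CPM in knockdown libraries, against 12.5, 10.7, 10.8 and 12.1 CPM in control libraries. Each knockdown library lay above every control library, a 1.4-fold rise (log2 change 0.49, SE 0.0689, edgeR adjusted p = 7.98e-07). Of the exonic length of WNT2B, 21.2% is shared with ST7L on the other strand, and ST7L itself had a log2 change of 0.08 that did not pass (edgeR adjusted p = 0.31). Whether the counting used the strand is not stated, so reads from the shared stretch cannot be assigned.

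WNT5B (ENSG00000111186.13, chromosome 12) is the closest relative of WNT5A and, like it, is known mainly for signalling without beta-catenin. Its level was 70.01, 59.9, 69.6 and 71.8 CPM in knockdown libraries, against 48.9, 50.6, 52.8 and 48.3 CPM in control libraries, with no overlap between the groups and a 1.35-fold rise (log2 change 0.44, SE 0.0491, edgeR adjusted p = 1.11e-07). Knockdown replicate 2 was the lowest of its group and still lay above the control libraries.

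WNT3 (ENSG00000108379.10, chromosome 17), a beta-catenin ligand, moved the other way. It measured 8.82, 7.03, 6.89 and 8.44 CPM in knockdown libraries, against 10.6, 10.6, 9.22 and 10.7 CPM in control libraries. Knockdown libraries were all below control libraries, at 75.7% of the control level (log2 change -0.40, SE 0.0883, edgeR adjusted p = 0.000345).

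WNT5A, the ligand with the most reads, had 161, 165, 158 and 167 CPM in knockdown libraries, against 184, 169, 171 and 176 CPM in control libraries. The groups were separate, but by a small margin, and the fall was to 92.9% of control (edgeR adjusted p = 0.00924). WNT7B, a beta-catenin ligand that needs the co-factors RECK and ADGRA2, averaged 100.1 ± 3.78 CPM in knockdown and 105 ± 3.41 CPM in control libraries (SD, n = 4 each), with overlapping groups and a 95% interval of -0.14 to 0.00 on the log2 scale. WNT10B stayed under 1 CPM in each library and had a log2 change of 0.15 (95% interval -0.36 to 0.66).

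The untested ligands were near the detection limit. WNT11 had 5, 3, 1 and 4 reads in knockdown libraries, against 0, 0, 0 and 0 in control libraries. Against a floor of 3 counts over the control group, that is 4.47-fold higher, with no allowance for the counting error of the few knockdown reads. Without a filter on low counts, WNT11 was called higher (edgeR adjusted p = 0.00244). WNT9A had 7, 9, 5 and 8 reads in knockdown libraries, against 11, 9, 6 and 7 in control libraries, with no difference called without the filter (edgeR adjusted p = 0.85). Of the other 11 human Wnt genes, none reached the count filter in the fit of all genes. Without it 2 of them passed, on few reads. WNT4 had 7, 4, 15 and 2 reads in knockdown libraries, against 2, 0, 3 and 4 in control libraries, with overlapping groups and 15 of the 28 knockdown reads in replicate 3. It passed as higher (edgeR adjusted p = 0.0311), but not without knockdown replicate 1 or 3 (edgeR adjusted p = 0.0618 and 0.462) or control replicate 1 or 2 (edgeR adjusted p = 0.0706 and 0.163). WNT10A had 6, 3, 0 and 4 reads in knockdown libraries, against 9, 11, 7 and 16 in control libraries. It passed as lower (edgeR adjusted p = 0.00504) with no overlap between the groups, but just missed without knockdown replicate 3 (edgeR adjusted p = 0.05125) or control replicate 4 (edgeR adjusted p = 0.05001).

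PORCN (ENSG00000102312.22, chromosome X) attaches the lipid that Wnt ligands need for secretion and receptor binding. It had 16.5, 13.7, 14.8 and 14.6 CPM in knockdown libraries, against 12.1, 12.2, 13.1 and 11.3 CPM in control libraries. All knockdown libraries exceeded all control libraries, a 1.23-fold difference (log2 change 0.30, SE 0.0698, edgeR adjusted p = 0.000765). WLS, the carrier that takes lipidated Wnts to the cell surface, was lower (67.2 ± 2.45 CPM in knockdown and 77.2 ± 1.86 CPM in control libraries, log2 change -0.20, SE 0.0369, edgeR adjusted p = 3.95e-05).

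Levels of different genes were compared per kilobase of exon. Among ligands WNT5A stood first with 21.99 ± 0.538 in knockdown and 23.7 ± 0.934 in control libraries (CPM per kilobase, SD, n = 4 each), followed by WNT7B with 19.8 ± 0.747 in knockdown and 20.8 ± 0.676 in control libraries and WNT5B with 15.8 ± 1.25 in knockdown and 11.6 ± 0.464 in control libraries. WNT3, WNT2B and WNT10B followed far below, at 2.37, 0.917 and 0.274 CPM per kilobase in control libraries. WNT5A, WNT7B and WNT5B made up nearly all of the ligand RNA per length. Each differed from the next by more than the SDs. The share of WNT5B in it was 25.8% ± 1.51 in knockdown and 19.5% ± 1.03 in control libraries, and that of WNT5A was 36.01% ± 1.41 in knockdown and 39.6% ± 0.731 in control libraries. These shares depend on the gene models: with the length of the longest transcript in place of all exons, WNT5B took 34.4% in knockdown and 26.8% in control libraries and WNT5A 30.8% in knockdown and 34.8% in control libraries.

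**Figure D2:**
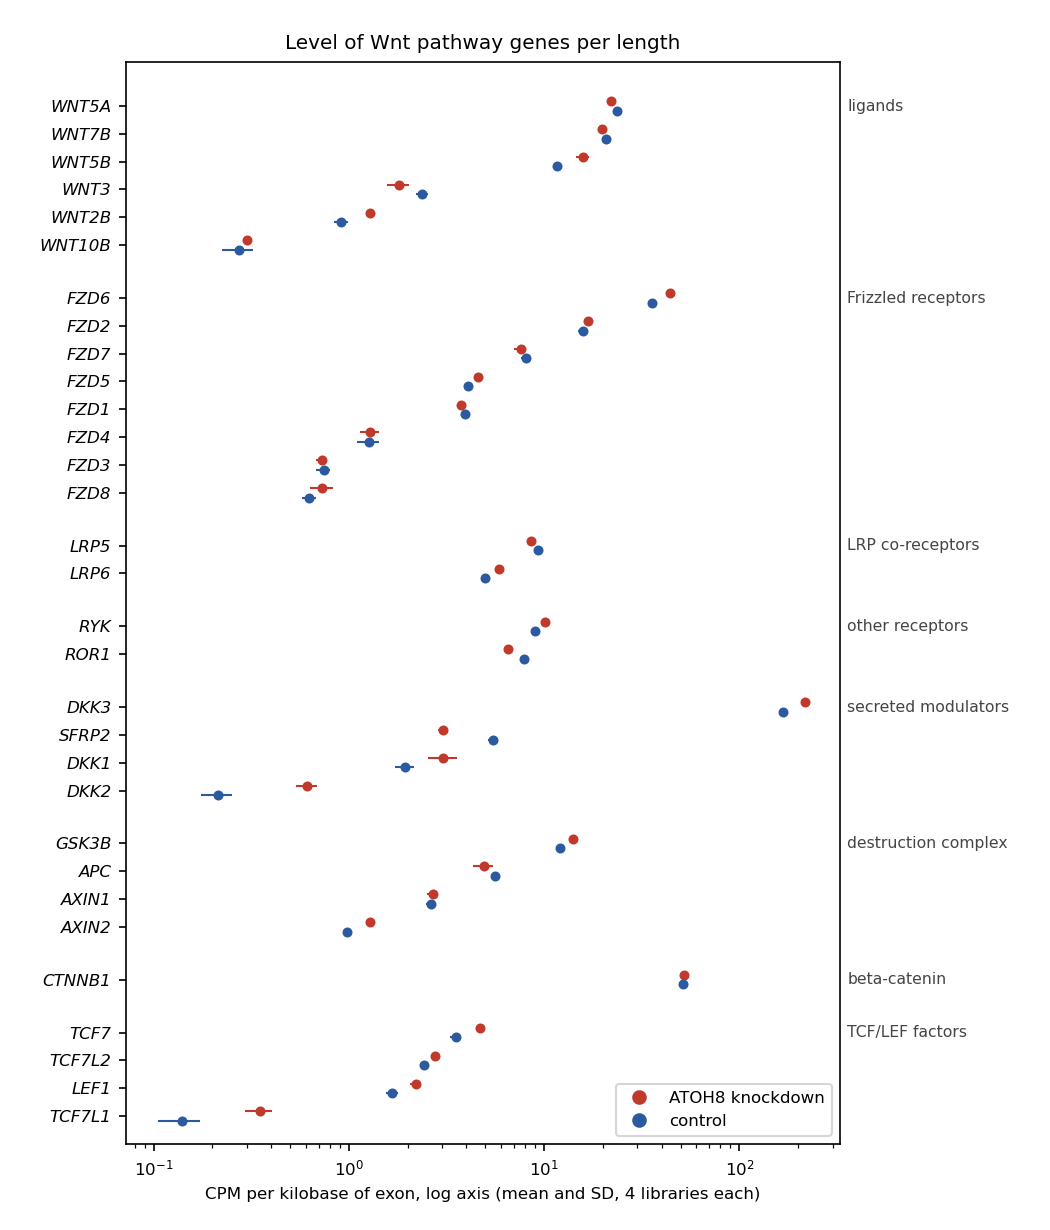
Level of the tested genes of 8 roles in CPM per kilobase of exon (horizontal log axis; points are means and bars SDs over 4 libraries, ATOH8 knockdown in red above control in blue), ordered within each role by the control level. DKK3 stands highest at 167 in control libraries, and WNT5A, FZD6, LRP5, RYK, GSK3B and TCF7 lead their roles.

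Summed by role, the secreted modulators reached 1113 ± 33.4 CPM in knockdown and 864 ± 20.2 CPM in control libraries (SD, n = 4 each), the Frizzled receptors 324 ± 4.25 CPM in knockdown and 286 ± 3.05 CPM in control libraries, the Dishevelled genes with NKD1 and NKD2 239 ± 2.5 CPM in knockdown and 203 ± 4.08 CPM in control libraries, and the TCF and LEF genes 79.2 ± 2.3 CPM in knockdown and 61.3 ± 2.78 CPM in control libraries. For these 4 roles every knockdown library lay above every control library. The Frizzled sum follows mainly FZD6, at 179.7 CPM in knockdown and 144.5 CPM in control libraries, and 6 Frizzled genes did not pass. The sum of the secreted modulators follows mainly DKK3, at 1098 CPM in knockdown and 847 CPM in control libraries. The co-receptors LRP5 and LRP6 summed to 113 ± 2.0 CPM in knockdown and 109 ± 3.34 CPM in control libraries, and the receptors ROR1, ROR2 and RYK to 125 ± 1.52 CPM in knockdown and 125 ± 2.09 CPM in control libraries. In both of these roles a gene that rose and a gene that fell were summed, and the groups overlapped.

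Among the Frizzled receptors the most abundant one rose and most of the others did not pass. Of 8 Frizzled genes, FZD6 and FZD5 were higher, the other 6 did not pass, and none was lower; 2 of 8 is near the share of 25.2% of all genes tested that passed as higher. FZD6 (ENSG00000164930.12, chromosome 8), a Frizzled known for planar polarity, had 172, 183, 185 and 178 CPM in knockdown libraries, against 142, 144, 146 and 146 CPM in control libraries. The groups were well separated, with a 1.24-fold rise (log2 change 0.31, SE 0.032, edgeR adjusted p = 2.11e-09). An antisense gene, BAALC-AS1, shares 3.395% of the exonic length of FZD6 and was also higher (log2 0.88, edgeR adjusted p = 4.63e-10), at 11.8 CPM in knockdown and 6.43 CPM in control libraries, which is small beside FZD6 itself.

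FZD5, a receptor of the beta-catenin branch, averaged 30.8 ± 1.31 CPM in knockdown and 27.4 ± 1.22 CPM in control libraries (SD, n = 4 each; log2 change 0.17, SE 0.0494, edgeR adjusted p = 0.00595), again with every knockdown library above the control libraries. The remaining Frizzled genes had log2 changes from -0.10 for FZD7 to 0.23 for FZD8, with edgeR adjusted p-values of 0.0929 and above. FZD2, second in level per kilobase, averaged 35.6 ± 0.828 CPM in knockdown and 33.3 ± 1.95 CPM in control libraries, with a 95% interval of -0.0012 to 0.19 on the log2 scale. FZD1 averaged 26.04 ± 0.967 CPM in knockdown and 27.3 ± 0.502 CPM in control libraries, with an interval of -0.17 to 0.03. FZD7 averaged 29.2 ± 2.06 CPM in knockdown and 31.2 ± 1.93 CPM in control libraries, with an interval of -0.21 to 0.01. Leaving out control replicate 1 made FZD2 pass as higher (edgeR adjusted p = 0.0313), and leaving out control replicate 4 made FZD7 pass as lower (edgeR adjusted p = 0.0436). FZD3 and FZD4, near 10 CPM, and FZD8, near 3 CPM, had overlapping groups, and FZD4 shares 18.9% of its exonic length with PRSS23 on the other strand. PRSS23 averaged 179 CPM in knockdown and 179.9 CPM in control libraries, far above FZD4, so without the strand setting the level of FZD4 is uncertain.

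Per kilobase, the order of the Frizzled genes in control libraries was FZD6 at 35.6, FZD2 at 15.8, FZD7 at 8.09, FZD5 at 4.08 and FZD1 at 3.92. FZD5 and FZD1 did not differ beyond their SDs of 0.182 and 0.07204, and FZD4, FZD3 and FZD8 lay at 1.27 and below. FZD6 held 55.4% ± 1.11 in knockdown and 50.8% ± 1.19 in control libraries of the summed Frizzled level per kilobase.

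The co-receptors of the beta-catenin branch moved in opposite directions. LRP6 (ENSG00000070018.9, chromosome 12) had 57.9, 63.2, 60.2 and 61.3 CPM in knockdown libraries, against 52.6, 50.96, 52.9 and 50.3 CPM in control libraries. The knockdown libraries were all above the control libraries, by 1.17-fold (log2 change 0.23, SE 0.0393, edgeR adjusted p = 1.32e-05). LRP5 averaged 52.7 ± 1.62 CPM in knockdown and 57.4 ± 2.29 CPM in control libraries (SD, n = 4 each) and was lower (log2 change -0.12, SE 0.0402, edgeR adjusted p = 0.0107), a call lost without control replicate 1 (edgeR adjusted p = 0.0539). Per kilobase LRP5 stayed above LRP6 in both groups, at 8.55 ± 0.262 in knockdown and 9.32 ± 0.371 in control libraries for LRP5 and 5.87 ± 0.216 in knockdown and 5.0 ± 0.126 in control libraries for LRP6.

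Receptors outside the Frizzled family also split. ROR1 (ENSG00000185483.12, chromosome 1), a receptor-like kinase that binds WNT5A, had 43.3, 43.6, 43.2 and 44.7 CPM in knockdown libraries, against 54.7, 51.9, 52.1 and 51.9 CPM in control libraries. Its knockdown values were tightly grouped below all control values, at 82.96% of control (log2 change -0.27, SE 0.0396, edgeR adjusted p = 1.52e-06). RYK (ENSG00000163785.12, chromosome 3), a Wnt receptor with an inactive kinase domain, had 80.03, 81.02, 81.5 and 82.3 CPM in knockdown libraries, against 71.6, 72.3, 70.4 and 75.01 CPM in control libraries. It was higher in every knockdown library, by 1.12-fold (log2 change 0.17, SE 0.0348, edgeR adjusted p = 0.000188). ROR2 was near the detection limit, with 5, 0, 1 and 4 reads in knockdown libraries, against 6, 3, 3 and 8 in control libraries. RYK stood above ROR1 per kilobase in both groups, at 10.1 ± 0.117 in knockdown and 8.99 ± 0.244 in control libraries for RYK and 6.51 ± 0.105 in knockdown and 7.84 ± 0.205 in control libraries for ROR1.

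The widest changes were among the secreted modulators, where DKK1, DKK2 and DKK3 rose and SFRP2 fell. DKK1 (ENSG00000107984.10, chromosome 10) blocks LRP5 and LRP6 and is itself a target of beta-catenin signalling in many cells. It measured 6.84, 5.18, 6.97 and 7.92 CPM in knockdown libraries, against 4.01, 4.13, 4.99 and 4.04 CPM in control libraries. The groups did not overlap, although knockdown replicate 2 came close to control replicate 3, and the rise was 1.57-fold (log2 change 0.65, SE 0.119, edgeR adjusted p = 3.53e-05).

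DKK2 (ENSG00000155011.9, chromosome 4), which binds LRP6 and can inhibit or activate depending on its partners, had 2.8, 2.95, 2.63 and 2.19 CPM in knockdown libraries, against 1.05, 0.788, 1.09 and 0.776 CPM in control libraries. All knockdown libraries lay far above the control libraries, a 2.85-fold rise (log2 change 1.51, SE 0.191, edgeR adjusted p = 1.17e-07). The counts behind it were small, with 65, 75, 61 and 55 reads in knockdown libraries, against 28, 21, 23 and 20 in control libraries. Among the 6630 tested genes with a mean under 10 CPM, 7.69% passed as higher by at least 2-fold and 2.14% as lower by that much, so large rises were more common than large falls among genes of low count. RNF43 and TCF7L1, the other Wnt genes with a change of at least 2-fold, lie in the same range.

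DKK3 (ENSG00000050165.18, chromosome 11), a divergent family member whose effect on Wnt signalling is unsettled, held most of the reads of this role and the highest level per kilobase of the 44 genes. It had 1089, 1056, 1121 and 1125 CPM in knockdown libraries, against 875, 827, 846 and 841 CPM in control libraries. The groups were separate by a wide margin relative to their spread, a 1.3-fold rise (log2 change 0.37, SE 0.0312, edgeR adjusted p = 4.08e-11). The summed level of all 44 genes was 3211 ± 33.6 CPM in knockdown and 2839 ± 40.5 CPM in control libraries (SD, n = 4 each), and DKK3, which averaged 1098 ± 32.4 CPM in knockdown and 847 ± 20.3 CPM in control libraries, made up most of that difference.

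SFRP2 (ENSG00000145423.5, chromosome 4), a secreted protein with a Frizzled-like domain that binds Wnts, had 5.81, 6.05, 6.63 and 6.25 CPM in knockdown libraries, against 10.8, 11.1, 11.98 and 10.5 CPM in control libraries. Knockdown libraries were all well below control libraries, at 55.9% of control (log2 change -0.84, SE 0.0823, edgeR adjusted p = 1.04e-09). Too low to test were SFRP1, another such protein, and WIF1, a secreted Wnt inhibitor. SFRP1 had 0, 8, 6 and 6 reads in knockdown libraries, against 2, 2, 2 and 2 in control libraries. WIF1 had 0, 2, 1 and 3 reads in knockdown libraries, against 0, 1, 0 and 1 in control libraries.

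The ligases that remove Frizzled receptors from the surface, RNF43 and ZNRF3, were both higher. RNF43 (ENSG00000108375.12, chromosome 17) had 5.85, 5.77, 5.85 and 4.46 CPM in knockdown libraries, against 3.26, 2.55, 2.38 and 2.52 CPM in control libraries. Knockdown replicate 4 lay below the other knockdown libraries and above all control libraries, and the rise was 2.03-fold (log2 change 1.02, SE 0.129, edgeR adjusted p = 1.15e-07). The annotation places an overlapping transcript, AC004687.2, over 57.6% of the exonic length of RNF43 on the same strand, so reads of the locus could be split between the rows. That row held 0.555 CPM in knockdown and 0.415 CPM in control libraries. On the other strand TSPOAP1-AS1 shares 20.3% of the exonic length, at 0.679 CPM in knockdown and 0.882 CPM in control libraries. SUPT4H1 shares 1.905% of it on the same strand and is more abundant, at 52.4 CPM in knockdown and 60.7 CPM in control libraries, and it was lower (log2 -0.21, edgeR adjusted p = 5.23e-05). ZNRF3 (ENSG00000183579.16, chromosome 22) had 20.3, 20.9, 19.5 and 19.7 CPM in knockdown libraries, against 15.1, 17.3, 16.4 and 16.03 CPM in control libraries. The groups did not overlap, and the rise was 1.24-fold (log2 change 0.31, SE 0.0577, edgeR adjusted p = 4.81e-05). LGR5, an R-spondin receptor that counters these ligases and a target of beta-catenin signalling in the intestine, had 6.24, 6.91, 6.5 and 5.33 CPM in knockdown libraries, against 1.54, 1.35, 1.9 and 1.59 CPM in control libraries, a 3.94-fold rise (log2 change 1.98, SE 0.135, edgeR adjusted p = 5.71e-13). LGR4, a more abundant receptor of the same family, averaged 125 ± 6.71 CPM in knockdown and 105 ± 3.72 CPM in control libraries (log2 change 0.24, SE 0.038, edgeR adjusted p = 4.11e-06).

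All 3 Dishevelled genes, which carry the signal from Frizzled into the cell, were higher by similar small amounts. DVL3 (ENSG00000161202.20, chromosome 3), with the most reads of them, had 121, 126, 123 and 121 CPM in knockdown libraries, against 105, 100.3, 96.1 and 99.8 CPM in control libraries. Each knockdown library was above each control library, by 1.22-fold (log2 change 0.29, SE 0.0342, edgeR adjusted p = 3.95e-08). DVL1 averaged 52.2 ± 1.16 CPM in knockdown and 46.1 ± 0.574 CPM in control libraries (log2 change 0.18, SE 0.0389, edgeR adjusted p = 0.000309). DVL2 averaged 63.9 ± 2.14 CPM in knockdown and 56.2 ± 0.797 CPM in control libraries (log2 change 0.18, SE 0.0377, edgeR adjusted p = 0.000157). For both, the groups were separate. The Dishevelled inhibitors NKD1 and NKD2, which are targets of beta-catenin signalling elsewhere, were barely detected, with 20 reads over the knockdown and 13 over the control libraries for NKD1, and 15 and 6 for NKD2.

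Members of the destruction complex changed in different directions. AXIN2 (ENSG00000168646.13, chromosome 17), an inducible scaffold often read as a reporter of beta-catenin signalling, had 6.67, 6.87, 6.89 and 6.29 CPM in knockdown libraries, against 5.36, 4.73, 5.28 and 5.16 CPM in control libraries. The groups did not overlap and the rise was 1.3-fold (log2 change 0.38, SE 0.0948, edgeR adjusted p = 0.00128). A transcript on the same strand, AC004805.1, covers 25.2% of its exonic length and was listed at 0 counts. The constitutive scaffold AXIN1 averaged 20.2 ± 1.34 CPM in knockdown and 19.7 ± 1.14 CPM in control libraries, with overlapping groups and a 95% interval of -0.08 to 0.16 on the log2 scale.

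GSK3B (ENSG00000082701.15, chromosome 3), the kinase that marks beta-catenin for destruction, had 113, 117, 111 and 119 CPM in knockdown libraries, against 95.9, 101, 96.2 and 101 CPM in control libraries. It was higher in every knockdown library, by 1.16-fold (log2 change 0.22, SE 0.035, edgeR adjusted p = 5.44e-06). APC, the tumour suppressor that holds the complex together, had 64.1, 67.1, 50.97 and 61.7 CPM in knockdown libraries, against 71.7, 68.4, 69.3 and 69.5 CPM in control libraries. Knockdown replicate 3 was far below the rest of its group. The call for APC was close to the threshold (log2 change -0.19, SE 0.072, edgeR adjusted p = 0.0486). It was lost without knockdown replicate 1 or 4 (edgeR adjusted p = 0.0652 and 0.108) and without control replicate 1, 2, 3 or 4 (edgeR adjusted p = 0.126, 0.0814, 0.0867 and 0.0949). Without knockdown replicate 3 the log2 change was -0.12 (edgeR adjusted p = 0.0169).

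The transcript of beta-catenin itself showed no detectable difference. CTNNB1 (ENSG00000168036.18, chromosome 3) had 610.4, 616, 619 and 629.7 CPM in knockdown libraries, against 611, 615, 605 and 623 CPM in control libraries. The groups overlapped, and the 95% interval of the log2 change was -0.05 to 0.07 (edgeR adjusted p = 0.763). RNA says nothing of the protein, which the pathway controls through its stability.

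All 4 TCF and LEF genes, whose products bind DNA and recruit beta-catenin, were higher. TCF7 (ENSG00000081059.20, chromosome 5), the most abundant of them, had 48.6, 46.8, 48.1 and 45.7 CPM in knockdown libraries, against 37.5, 33.02, 33.9 and 37.2 CPM in control libraries. The knockdown libraries were all above the control libraries, by 1.33-fold (log2 change 0.42, SE 0.0465, edgeR adjusted p = 1.29e-08). TCF7 shares 2.09% of its exonic length with SKP1 on the other strand, and SKP1 moved the opposite way (log2 -0.77, edgeR adjusted p = 7.29e-17).

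LEF1 (ENSG00000138795.10, chromosome 4), itself a target of beta-catenin signalling in many cells, had 11.8, 12.5, 12.2 and 10.6 CPM in knockdown libraries, against 9.82, 8.86, 8.22 and 8.96 CPM in control libraries. It was higher in each knockdown library, by 1.31-fold (log2 change 0.39, SE 0.0779, edgeR adjusted p = 0.000111). TCF7L1 (ENSG00000152284.5, chromosome 2), which acts mainly as a repressor, had 1.59, 1.22, 1.81 and 1.55 CPM in knockdown libraries, against 0.75, 0.713, 0.57 and 0.427 CPM in control libraries. The rise was 2.48-fold with no overlap between the groups (log2 change 1.31, SE 0.24, edgeR adjusted p = 3.72e-05), on counts of 37, 31, 42 and 39 reads in knockdown libraries, against 20, 19, 12 and 11 in control libraries. TCF7L2 averaged 18.6 ± 0.413 CPM in knockdown and 16.3 ± 0.78 CPM in control libraries (SD, n = 4 each; log2 change 0.18, SE 0.0573, edgeR adjusted p = 0.00798), also without overlap. Per kilobase, the order in control libraries was TCF7 at 3.52, TCF7L2 at 2.43, LEF1 at 1.67 and TCF7L1 at 0.139, and it was the same in knockdown libraries.

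**Figure D3:**
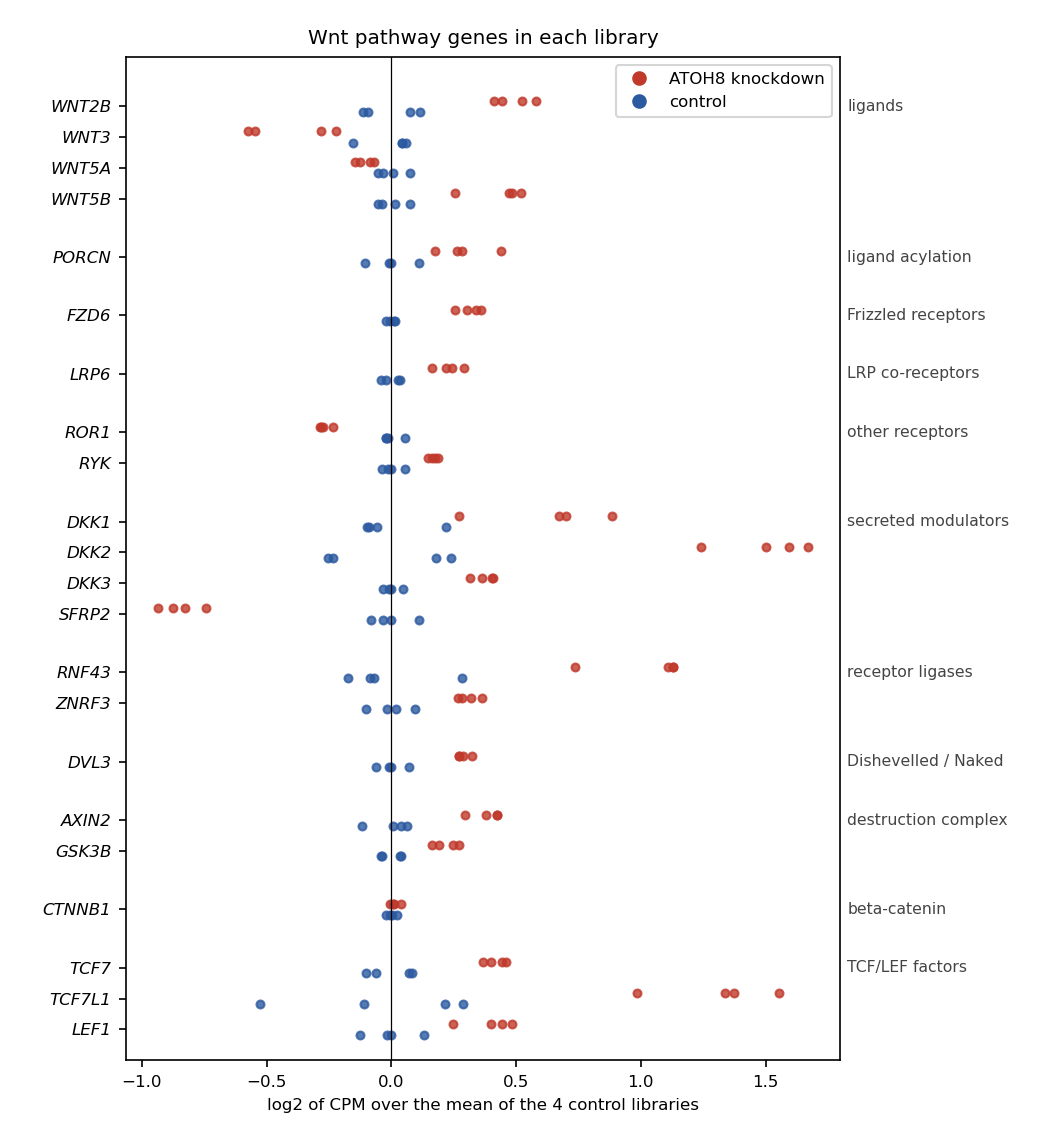
Level in each of the 8 libraries of the 22 Wnt genes given by library, as log2 of CPM over the mean of the 4 control libraries (horizontal axis; each point is 1 library, ATOH8 knockdown in red above control in blue). The colours are apart for every gene shown except CTNNB1, and the widest gaps are those of DKK2, TCF7L1, RNF43 and SFRP2.

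The available promoters of the 44 genes were searched for the core letters that TCF and LEF proteins bind. Whether those factors had a part in the changes was not tested. The words were CTTTG followed by AA, AT, TA or TT on either strand, in windows of 250 bases before to 50 after each start from RefSeq (GRCh38.p14). There were 39 windows for 30 of the 44 genes. Genes without a window, among them AXIN2, ZNRF3, NKD1, LRP6, FZD6, DKK2 and DKK3, were not searched. A word was found in 4 windows (10.3%), against 13.8% of 35116 windows of the same length over all genes, counted by window. Counted by gene, 13.3% of the 30 genes held a word in at least 1 window, and 3 of the 15 that rose and 1 of the 6 that fell did so, where a gene with several starts has several windows. The E-box CANNTG, the general binding word of helix-loop-helix factors, was found in 56.4% of the 39 windows and in 68.7% of all windows. The windows with a TCF word belong to DKK1, TCF7 and TCF7L2, which rose, and WNT3, which fell. They are shown 5′ to 3′ on the strand of the gene, with the words in capitals.
DKK1 (chr10:52314031-52314330, plus strand): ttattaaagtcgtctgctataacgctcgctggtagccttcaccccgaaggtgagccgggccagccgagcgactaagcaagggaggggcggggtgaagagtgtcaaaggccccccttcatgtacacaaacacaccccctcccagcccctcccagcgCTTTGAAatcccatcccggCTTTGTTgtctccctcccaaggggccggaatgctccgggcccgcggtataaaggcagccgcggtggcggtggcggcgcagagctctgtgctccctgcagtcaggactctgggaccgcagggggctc
TCF7 (chr5:134123368-134123667, plus strand): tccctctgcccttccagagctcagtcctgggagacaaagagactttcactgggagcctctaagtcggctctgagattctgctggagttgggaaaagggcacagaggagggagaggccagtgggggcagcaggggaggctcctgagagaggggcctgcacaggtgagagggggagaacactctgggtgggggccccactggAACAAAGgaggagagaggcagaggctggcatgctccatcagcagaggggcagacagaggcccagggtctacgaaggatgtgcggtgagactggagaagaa
TCF7L2 (chr10:113126383-113126682, plus strand): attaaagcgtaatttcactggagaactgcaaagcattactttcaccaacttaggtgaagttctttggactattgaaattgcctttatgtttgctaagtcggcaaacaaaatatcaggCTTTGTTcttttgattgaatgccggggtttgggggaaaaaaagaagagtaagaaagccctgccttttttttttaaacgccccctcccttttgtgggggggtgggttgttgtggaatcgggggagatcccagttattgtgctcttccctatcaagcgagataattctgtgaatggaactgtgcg
WNT3 (chr17:46818643-46818942, minus strand): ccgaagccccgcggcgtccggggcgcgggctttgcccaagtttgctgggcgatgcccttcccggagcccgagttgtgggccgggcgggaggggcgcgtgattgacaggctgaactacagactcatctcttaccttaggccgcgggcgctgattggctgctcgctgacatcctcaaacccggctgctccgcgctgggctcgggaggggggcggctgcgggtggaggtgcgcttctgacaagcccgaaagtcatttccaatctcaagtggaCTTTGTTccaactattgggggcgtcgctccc
The words of DKK1 begin 95 and 76 bases before the start, that of TCF7 50 and that of TCF7L2 133 bases before it, and that of WNT3 lies after it. The word of TCF7 is on the opposite strand. TCF7 and TCF7L2 have other annotated starts without a word. A match of letters is a description and not a binding site.

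The rest of the pathway was read from lists of other Wnt genes, and none of these moved mainly one way. These lists, too, were chosen with earlier results of these data known. Of 30 other surface and secreted genes, 17 were tested, 7 were higher, 7 lower and 3 did not pass (median log2 change 0.06). That is 41.2% in each direction, against 25.2% higher and 25.9% lower for all genes tested. The rises with the smallest p-values were those of LGR5, of ADGRA2, the co-factor of WNT7B (log2 0.82, SE 0.0641), and of PTK7, a co-receptor linked to planar polarity (log2 0.27, SE 0.0336). Among the falls the smallest p-values were those of GPC4 and GPC6, glypicans that hold Wnts at the cell surface (log2 -0.91, SE 0.0577 and log2 -0.35, SE 0.0386), and of TRABD2A, a protease that inactivates Wnts (log2 -0.67, SE 0.107). GPC4 averaged 17.5 ± 1.59 CPM in knockdown and 33.002 ± 1.42 CPM in control libraries (SD, n = 4 each). NOTUM, a deacylase that is a feedback inhibitor of Wnts, was under the count filter with 42 reads over the knockdown and 8 over the control libraries, and was called higher without the filter (edgeR adjusted p = 0.000153).

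Of 40 further intracellular genes of the beta-catenin branch, 39 were tested, 12 were higher, 13 lower and 14 missed the threshold (median 0.03). These shares, 30.8% higher and 33.3% lower, lay near the 25.2% and 25.9% of all genes tested, so the genes named next are single genes and not a result about the list. DACT3, a Dishevelled-binding protein at a low level in both groups, rose (2.21 ± 0.474 CPM in knockdown and 0.432 ± 0.125 CPM in control libraries, log2 2.32, SE 0.249). It met the count filter only through its knockdown libraries, since control replicates 1 and 3, at 0.375 and 0.285 CPM, lay under the cutoff of 0.398 CPM. BCL9L, a co-activator of beta-catenin (log2 0.43, SE 0.0347), and TNIK, a kinase of TCF complexes (log2 0.29, SE 0.0368), rose as well. The falls included SKP1 and CUL1, parts of the ubiquitin ligase that marks beta-catenin and many other proteins (log2 -0.77, SE 0.0353 and log2 -0.31, SE 0.0389), and AMER1, a scaffold that binds APC (log2 -0.82, SE 0.081). CSNK1A1, the kinase that primes beta-catenin for GSK3B and named here after its values were seen, was also lower (log2 -0.26, SE 0.0332).

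All 33 listed genes of planar polarity and calcium signalling were tested, and 11 were higher, 8 lower and 14 missed the threshold (median 0.03). At 33.3% higher and 24.2% lower, this list too lay near all genes tested (25.2% and 25.9%). CELSR3 and PRICKLE2, polarity proteins (log2 0.62, SE 0.0482 and log2 0.34, SE 0.0306), and CAMK2D, a calcium-dependent kinase (log2 0.35, SE 0.0401), had the smallest p-values among the rises, and MAPK9 (log2 -0.31, SE 0.0362), DAAM1, a formin bound by Dishevelled (log2 -0.36, SE 0.0551), and VANGL1 (log2 -0.22, SE 0.0399) the falls. NFATC4 had the largest change of this list by size and was named after its values were seen (1.12 ± 0.23 CPM in knockdown and 0.154 ± 0.0582 CPM in control libraries, log2 2.86, SE 0.333). Its control level lay under the count filter's cutoff of 0.398 CPM, so it was tested only through its knockdown libraries.

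Genes reported elsewhere as beta-catenin targets went both ways. Of 40 listed, 33 were tested, 16 were higher, 11 lower and 6 neither, which is 48.5% higher and 33.3% lower, against 25.2% and 25.9% of all genes tested. The median log2 change of this list was 0.08. TBX3 (log2 0.51, SE 0.0423), JUN (log2 0.38, SE 0.0328) and NRCAM (log2 0.54, SE 0.0543) had the smallest p-values among the rises. TERT (log2 -0.36, SE 0.0375), TCF4 (log2 -0.46, SE 0.049) and FOSL1 (log2 -0.32, SE 0.0355) had the smallest among the falls, although the list ran from -0.77 to 0.83 on the log2 scale. TCF4 here is the helix-loop-helix gene of that name and not TCF7L2. AB8/13 was made with an introduced telomerase gene, and the row of TERT cannot separate that copy from the cell's own. Named after their values were seen, the textbook targets CCND1 and MYC also split, with CCND1 higher (log2 0.20, SE 0.0331) and MYC lower (log2 -0.20, SE 0.050). Of the 7 listed genes below the count filter, CCN4 (also called WISP1) had 48 reads over the knockdown and 11 over the control libraries and was called higher without the filter (edgeR adjusted p = 0.000173). NOS2, with 8 reads over the knockdown and 0 over the control libraries, was also called higher (edgeR adjusted p = 0.022). The rest of the 7 were not called. Many genes of this list respond to other pathways too.

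**Figure D4:**
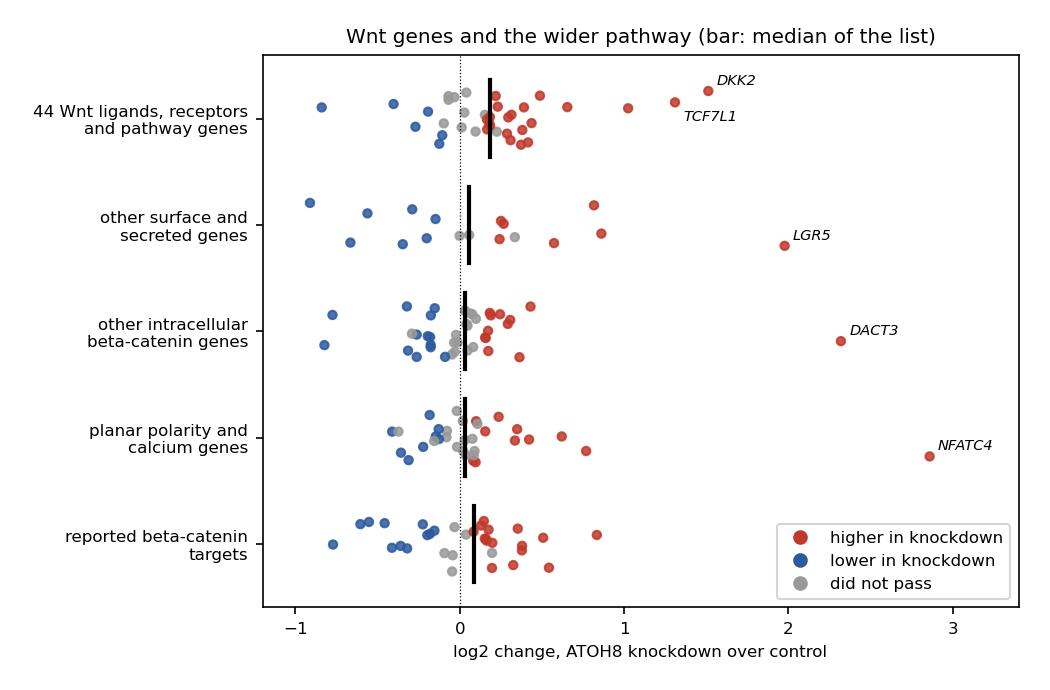
Log2 change in ATOH8 knockdown over control (horizontal axis) of the tested genes of 5 lists, each point a gene coloured by its call, with a black bar at the median of the list; vertical scatter within a list is for visibility only. The Wnt genes have a median of 0.18 and the other 4 lists medians from 0.03 to 0.08, with LGR5, DACT3 and NFATC4 far to the right. DACT3 and NFATC4 met the count filter only through their knockdown libraries.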

How the data were processed

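The authors deposited whole-number read counts per gene, 1 column per library. Per the labels' protocols, the library kit was directional and the RNA integrity number exceeded 7.0. Per the submitters' processing notes, the genome build was hg19 and the tools included STAR, featureCounts, FastQC and DESeq2; the sources used here give no versions, annotation or strand setting. Of 60609 rows, 1 with a missing cell and 44 pseudoautosomal copies on chromosome Y without counts were dropped. Symbols came from a gene name table and, for 250 genes, from GENCODE 29, which also gave exon lengths, overlaps and chromosomes. That annotation is on GRCh38, so no hg19 coordinates are printed.

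Genes were filtered with filterByExpr, scaled by TMM and compared, 4 knockdown against 4 control libraries, with the robust quasi-likelihood test of edgeR 4.0.16 (R 4.3.3), adjusted over 16884 genes. SEs were derived from the F statistic. The fit was tested on simulated data with 200 of 16648 tested genes changed, a far smaller share than was called here. Of 50 genes changed at each size, 32 were recovered at 1.3-fold, 35 at 1.5-fold, 43 at 2-fold and 49 at 4-fold. Of the 163 calls, 4 were false. Within groups, the 12 pairs of libraries had a chi-square per gene of 1.95 to 4.48, so none was a duplicate. The 44 genes and the lists were chosen with earlier results of these data known. Values in every library are given for ATOH8, for Wnt genes called with a log2 size of at least 0.2 and for the gene of each role with the highest mean CPM; those of APC and LGR5 were added after they were seen. From each other list up to 3 rises and 3 falls with the smallest p are named. Alternatives were the size factors or the Wald test of DESeq2 1.42.0, other count filters, the longest transcript as length, the replicate number as a block and leaving out each library.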

Additional observations from a re-analysis of the deposited data

Results flagged for a closer look

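Of 124 groups of 4 libraries checked for a single library far from the other 3, 12 were picked out, and chance picks about 1 in 20. Among Wnt genes that passed, WNT3 was low in control replicate 3 at 9.22 CPM (the other control libraries 10.6 to 10.7), ROR1 high in control replicate 1 at 54.7 CPM (51.9 to 52.1), DKK1 high in control replicate 3 at 4.99 CPM (4.01 to 4.13), RNF43 low in knockdown replicate 4 at 4.46 CPM (5.77 to 5.85) and DVL1 low in knockdown replicate 2 at 50.4 CPM (52.6 to 52.8). Each of these libraries stayed on its own side of the other group. Among those that did not pass, FZD8 was low in control replicate 4 at 2.21 CPM (2.59 to 2.66) and AXIN1 high in control replicate 3 at 21.3 CPM (18.9 to 19.3). In the other lists BCL9L was high in knockdown replicate 1 at 158 CPM (others up to 152), TERT high in knockdown replicate 1 at 91.8 CPM (84.9 to 85.3), PTK7 high in control replicate 3 at 242 CPM (others from 228), TNIK low in control replicate 4 at 68.5 CPM (others up to 73.1) and FOSL1 high in control replicate 1 at 193 CPM (173 to 176).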

How the results depend on the processing

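Under 13 alternatives (DESeq2's size factors or Wald test, 2 other count filters, the replicate block and leaving out each library), between 21 and 22 Wnt genes were called higher and between 4 and 6 lower. The calls that were lost were those of LRP5 and APC given above and of APC when 1 CPM in 4 libraries was required (edgeR adjusted p = 0.0525). WNT10B was not tested under that requirement. With no filter, WNT11 passed, and of the other 11 Wnt ligands 1 was called higher and 1 lower, against 0 and 0 with the filter, since none of the 11 was tested there. Leaving out libraries in that fit was added after the data were seen. Leaving out a library, the log2 change crossed 0 for genes that never passed: FZD3 ran from -0.0793 to 0.00569, FZD4 from -0.0468 to 0.109 and AXIN1 from -0.00578 to 0.0769. Wnt genes that passed kept their direction throughout, and ATOH8 ran from -1.34 to -1.199.

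With the replicate number as a block (replicate block), 21 Wnt genes were called higher and 6 lower, and 4336 and 4466 of all genes. The sources give no shared origin for libraries of the same number. The correlations of their deviations were positive but small, at 0.0534, 0.0352, 0.00965 and 0.0771, and 6 of 8 libraries correlated best with their own number. These 8 comparisons reuse the same correlations, of deviations centred within each group, and are not independent. They are at most a hint of a weak pairing that the design does not state, and pairing was not tested. DESeq2's Wald test called 3850 genes higher and 3905 lower. Its size factors moved the median of all genes by 0.0032 on the log2 scale. Per kilobase, the leading gene of a role in control libraries did not depend on the length used. In knockdown libraries the leading ligand did: by the longest transcript, WNT5B stood at 29.5 and WNT5A at 26.3 CPM per kilobase. Depth limits WNT9A, WNT11, ROR2, SFRP1, WIF1, NKD1 and NKD2, with at most 33 reads over a group.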
